A study of Mus musculus with 5 samples.

Results

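The class II and class IV histone deacetylase genes were Hdac4, Hdac5, Hdac6, Hdac7, Hdac9, Hdac10 and Hdac11, 7 of the 22380 protein-coding genes of the GENCODE vM1 annotation. H3K9ac peaks were assigned to them when the centre of the peak lay within 10 kb of any annotated transcript start of the gene. This gave 25 of the 34286 peaks called in DOP-treated cells and 18 of the 33355 peaks called in untreated cells. The study asked how acetylation of histone H3 at lysine 9 (H3K9ac) is distributed after the sphingosine-1-phosphate lyase (SPL) is blocked in a cell model of Huntington's disease. Chromatin carrying the mark was immunoprecipitated and sequenced, and the authors deposited 1 peak list for each condition.

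STHdh Q111 cells are a conditionally immortalized line of mouse striatal progenitors, labelled as strain C57BL/6, with mutant huntingtin in both alleles (STHdhQ111/Q111). Both groups carried this genotype and both were kept in serum-free medium for 24 h. The DOP-treated group had 2 samples and received 4 mM 4-deoxypyridoxine hydrochloride (DOP), an inhibitor of SPL, while the untreated group had 2 samples and received the DPBS vehicle. A further sample of untreated cells was precipitated with normal rabbit IgG and was not analysed here, and neither were wild-type cells. All samples came from 1 line, and the labels do not say whether those of a group were separate cultures. Since the samples of a condition share 1 list, no spread between replicates can be given, no test was made, and every difference described is a difference between 2 lists. Each peak was an interval of 200 bp with a score that the lists do not define, so each score is given as its percentile within its own list, where 100 is the highest. The depth of the samples is unknown. In bulk chromatin, a mark on fewer cells and a lower level of the mark in each cell cannot be told apart.

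Histone deacetylases remove acetyl groups from lysines of histones and other proteins, and H3K9ac is a mark of active promoters. The class IIa enzymes Hdac4, Hdac5, Hdac7 and Hdac9 have little deacetylase activity of their own, bind MEF2 transcription factors and corepressors, and leave the nucleus when kinases phosphorylate them and 14-3-3 proteins hold them in the cytoplasm. The class IIb enzymes Hdac6 and Hdac10 act largely in the cytoplasm, and Hdac11 is the sole class IV member. H3K9ac peaks describe the chromatin at these genes, not the activity of the enzymes they encode.

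H3K9ac peaks of both lists lay near 5 of the 7 genes, namely Hdac5, Hdac6, Hdac7, Hdac10 and Hdac11, and no peak of either list lay near the annotated starts of Hdac4 or Hdac9. Over all protein-coding genes, 57.7% had a DOP-treated peak and 56.9% had an untreated peak within the same distance. Of the 5 genes with a peak, 4 had a larger number in DOP-treated cells (Hdac5, Hdac6, Hdac7 and Hdac10), none had a smaller one, and Hdac11 had 1 in each. Across the 13272 protein-coding genes near which at least 1 list placed a peak, the DOP-treated count was larger for 32.5%, smaller for 28.5% and equal for 39.0%. The count of 4 depended on the assignment of peaks to genes. When only peaks nearest to a start of the gene itself were kept, Hdac6 and Hdac7 had more DOP-treated peaks and Hdac10 had fewer, and with a window of 1 kb Hdac6 had more and Hdac10 had fewer. The class IIa genes together had 15 DOP-treated and 11 untreated peaks, the class IIb genes had 9 and 6, and Hdac11 had 1 and 1.

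**Figure D1:**
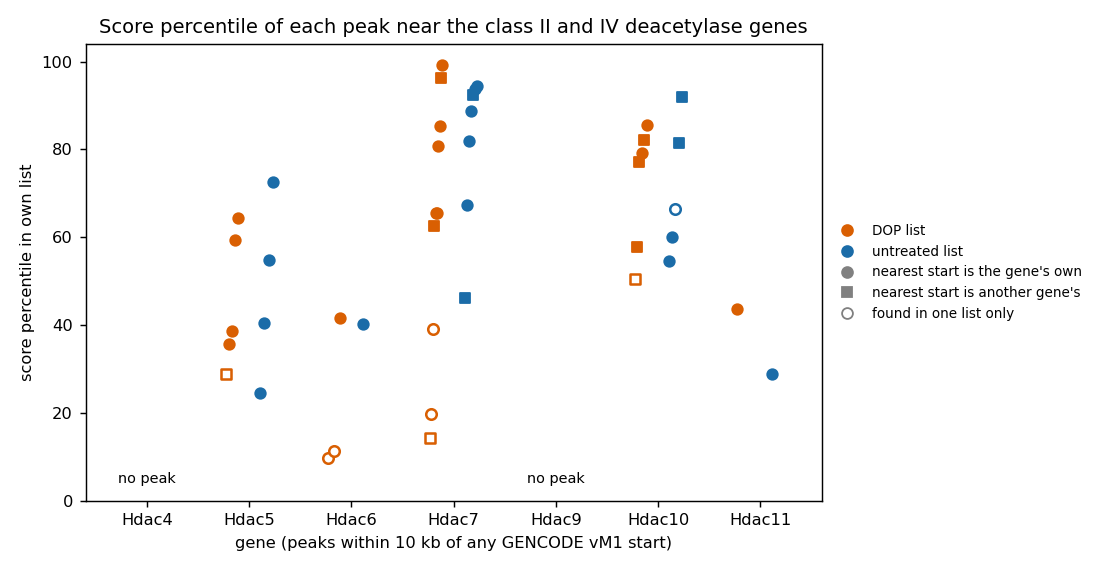
Score percentile within its own list (vertical axis) of every H3K9ac peak centred within 10 kb of an annotated start of each deacetylase gene (horizontal axis). Orange symbols are DOP-treated peaks, blue symbols are untreated peaks, squares are peaks nearest to the start of another gene, and open symbols are peaks found in 1 list only. Hdac7 reached percentile 99.1 in the DOP-treated list, Hdac6 and Hdac11 stayed below 50 in both lists, and Hdac4 and Hdac9 had no peak.

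Hdac7, a class IIa enzyme known for its roles in thymocytes and blood vessels, had the most peaks and the highest scores of the 7 genes. On the minus strand of chromosome 15 (mm9), the gene spans 97623095 to 97674933, with 12 annotated start sites whose windows cover 70.1 kb. It had 10 DOP-treated peaks and 7 untreated peaks. Of all protein-coding genes, whatever the width of their windows, 0.836% had 10 or more DOP-treated peaks and 3.61% had 7 or more untreated peaks. Counting for each gene only the peaks nearest to its own start, Hdac7 had 7 and 5, and 0.786% and 4.17% of genes had as many or more. Genes with a peak had a median of 3 in each list.

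**Figure D2:**
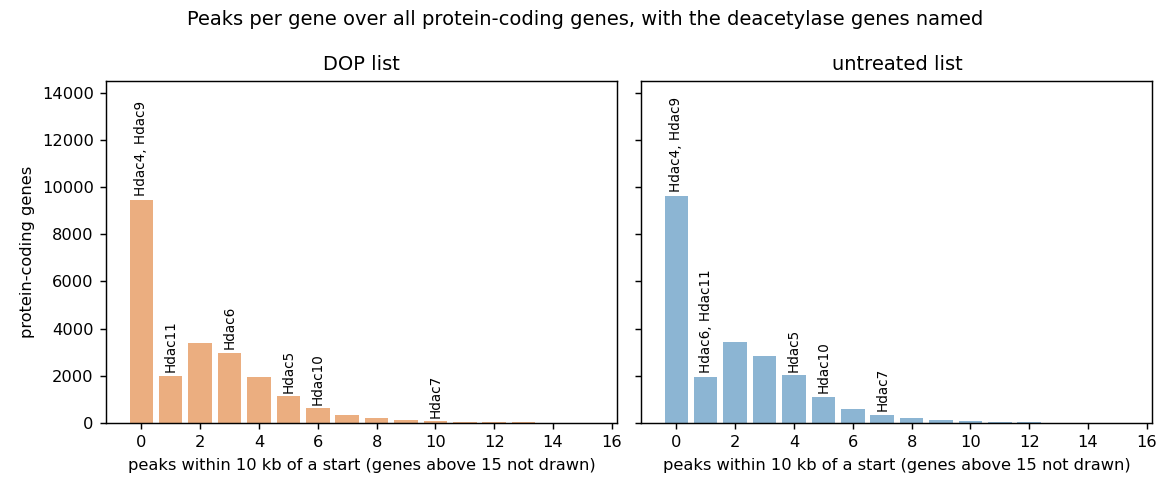
Number of protein-coding genes (vertical axis) by the number of H3K9ac peaks within 10 kb of a start (horizontal axis), for DOP-treated peaks (left) and untreated peaks (right). Names mark the deacetylase genes above their bar, with Hdac7 at 10 and 7 peaks and Hdac4 and Hdac9 at 0.

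The highest-scoring peak of all 7 genes was a DOP-treated peak of Hdac7 centred at 97661690, in an intron 210 bp downstream of the nearest start, with a score of 2058 that ranked 293 of 34286 (percentile 99.1). Its counterpart in the untreated list was centred 23 bp away, at percentile 93.8. The highest-scoring untreated peak of Hdac7 was centred at 97662327, in an intron 129 bp upstream of the start at 97662198, at percentile 94.4. The DOP-treated peak paired with it lay 35 bp away at percentile 65.6, and a further DOP-treated peak at percentile 80.8 overlapped the same untreated peak. Each of these highest peaks overlapped more than 1 peak of the other list, so single percentiles compare split with unsplit calls. Ranked by single peaks, the order of these 2 sites was not the same in the lists. The cause was not tested. Another site in the first kilobase, 471 bp from the start, stood at percentile 85.4 for DOP-treated and 88.8 for untreated peaks. The untreated list had a further peak 114 bp from the start at percentile 81.8, which overlapped the highest DOP-treated peak. The sequences of the sites with the highest score in each list follow on the strand of the gene, with each CpG in capitals, together with that of a DOP-only peak farther away. The first is cut by 1 base to leave out annotated UTR.

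Hdac7, highest DOP-treated peak, chr15:97661591-97661789 (mm9, minus strand): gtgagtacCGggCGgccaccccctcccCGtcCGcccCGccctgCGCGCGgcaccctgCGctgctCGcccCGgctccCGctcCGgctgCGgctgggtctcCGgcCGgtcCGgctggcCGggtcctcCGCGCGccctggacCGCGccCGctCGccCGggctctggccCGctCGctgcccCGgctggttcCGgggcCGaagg
Hdac7, highest untreated peak, chr15:97662228-97662427 (mm9, minus strand): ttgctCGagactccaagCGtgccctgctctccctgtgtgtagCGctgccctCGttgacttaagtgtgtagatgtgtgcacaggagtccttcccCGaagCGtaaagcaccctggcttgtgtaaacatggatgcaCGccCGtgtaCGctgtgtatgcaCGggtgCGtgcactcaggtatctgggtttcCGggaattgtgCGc
Hdac7, DOP-only peak, chr15:97667924-97668123 (mm9, minus strand): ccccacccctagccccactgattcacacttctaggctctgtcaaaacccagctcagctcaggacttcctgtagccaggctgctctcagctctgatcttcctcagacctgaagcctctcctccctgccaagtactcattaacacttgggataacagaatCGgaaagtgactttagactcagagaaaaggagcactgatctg

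The first sequence holds 31 CpG dinucleotides and 82.9% G or C, the second holds 13 and 57.0%, and the third holds 1 and 51.5%. The DOP-only peak of the third line was centred 5825 bp upstream of the nearest start, at percentile 19.8, and the nearest untreated peak was 5696 bp away. A second DOP-only peak of Hdac7 lay 5613 bp downstream of a start at percentile 39.1, 266 bp from an untreated peak, beside a shared site at percentiles 65.5 and 67.4. The third DOP-only peak, at percentile 14.2, was nearest to the start of Slc48a1, which encodes a heme transporter, and lay in an intron of that gene. In all, 3 DOP-treated and 2 untreated peaks counted for Hdac7 were nearest to Slc48a1, and the strongest of these stood at percentiles 96.3 and 92.4. They were near Hdac7 through its most downstream annotated start, with distances of up to 9793 bp, and the first peaks beyond the window lay 11678 bp (DOP-treated) and 11687 bp (untreated) away. Without them Hdac7 had 7 DOP-treated and 5 untreated peaks, and 4 of each lay within 1 kb of a start.

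Hdac5, a class IIa repressor of MEF2 targets, had 5 DOP-treated and 4 untreated peaks. On the minus strand of chromosome 11 it spans 102055746 to 102091480, with 19 annotated start sites. All 4 untreated peaks overlapped DOP-treated peaks, and 3 of these 4 sites clustered at the 5' end of the gene. There, a site 174 bp downstream of a start was at percentile 64.3 for DOP-treated and 72.6 for untreated peaks. The site 360 bp downstream was at 59.3 and 54.8, and the site upstream of the gene was at 35.6 and 24.6. The remaining site, at an internal start and within an annotated UTR, was at 38.8 and 40.5. The extra DOP-treated peak, at percentile 28.8, was 227 bp downstream of the start of G6pc3, a glucose-6-phosphatase subunit, in a coding exon of that gene, and 5070 bp from an untreated peak. The peaks nearest to Hdac5 itself thus numbered 4 in each list. The strongest untreated site is given without its annotated UTR bases, and holds 28 CpG dinucleotides in 176 bases.

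Hdac5, highest untreated peak, chr11:102091143-102091318 (mm9, minus strand): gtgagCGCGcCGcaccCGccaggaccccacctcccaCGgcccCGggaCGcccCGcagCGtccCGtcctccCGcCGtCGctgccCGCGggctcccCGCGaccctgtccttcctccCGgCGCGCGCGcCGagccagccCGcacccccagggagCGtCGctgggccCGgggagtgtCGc

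Hdac4, a class IIa enzyme that shuttles between nucleus and cytoplasm in neurons and restrains MEF2 in cartilage and muscle, had no peak within 10 kb of its 3 annotated starts on chromosome 1, where the gene spans 93829334 to 94044970 (minus strand). The nearest DOP-treated peak lay 31334 bp from a start and the nearest untreated peak lay 17600 bp away. The untreated list held 2 peaks inside the gene, both in introns, at percentiles 4.92 and 10.6, and neither overlapped a DOP-treated peak. A RefSeq start of Hdac4, placed on mm9 by an exact match of its promoter sequence, lay at 94076918, which is 31.9 kb upstream of the nearest vM1 start and 280 kb from the start of the nearest other gene, Ndufa10. Around this start were 4 DOP-treated and 5 untreated peaks, the farthest of them 1079 bp from it. The 4 DOP-treated peaks all overlapped untreated peaks. From upstream to downstream of the RefSeq start, the 4 shared sites were at percentiles 40.7, 67.9, 76.4 and 58.9 for DOP-treated and 38.2, 67.1, 79.0 and 66.5 for untreated peaks. The untreated-only peak was 1079 bp downstream at percentile 24.9, and its centre was 465 bp from the nearest DOP-treated peak. Hdac4 thus went from 0 peaks to 4 and 5 with the choice of annotation, and 7 of 7 genes then had a DOP-treated peak and 6 an untreated one. Of the 5534 genes that had a placed RefSeq start and no peak at vM1 starts, 1.23% had peaks of both lists within 10 kb of a placed RefSeq start.

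The 250 bases upstream of the RefSeq start of Hdac4 are printed beside those of the RefSeq starts of Hdac9, since these genes differed in peaks and in sequence. They were read on the strand of the gene, with CpG in capitals.

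Hdac4, chr1:94076919-94077168 (mm9, minus strand): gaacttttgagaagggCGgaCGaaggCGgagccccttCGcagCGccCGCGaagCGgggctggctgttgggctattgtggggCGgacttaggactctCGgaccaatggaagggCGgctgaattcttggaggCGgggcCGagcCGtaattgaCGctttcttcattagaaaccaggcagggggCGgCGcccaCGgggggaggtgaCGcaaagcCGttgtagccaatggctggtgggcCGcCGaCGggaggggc
Hdac9, annotated start, chr12:35213755-35214004 (mm9, minus strand): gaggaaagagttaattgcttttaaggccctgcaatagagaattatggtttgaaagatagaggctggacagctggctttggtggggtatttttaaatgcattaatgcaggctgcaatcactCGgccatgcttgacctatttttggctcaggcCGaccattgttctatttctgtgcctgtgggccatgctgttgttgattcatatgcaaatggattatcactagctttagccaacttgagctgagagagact
Hdac9, upstream RefSeq start, chr12:35601768-35602017 (mm9, minus strand): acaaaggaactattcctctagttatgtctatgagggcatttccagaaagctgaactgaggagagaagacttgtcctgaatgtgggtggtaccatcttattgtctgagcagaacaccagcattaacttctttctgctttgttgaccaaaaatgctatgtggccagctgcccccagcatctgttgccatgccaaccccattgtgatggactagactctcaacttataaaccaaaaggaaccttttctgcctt

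Hdac9, whose short form is known as a MEF2-binding repressor without a catalytic domain, had no peak within 10 kb of its 3 annotated starts on chromosome 12 (34732451 to 35213754, minus strand). The nearest DOP-treated peak to any of them was 298190 bp away and the nearest untreated peak 333794 bp away. That DOP-treated peak lay in an intron of Hdac9 at percentile 16.5, had no untreated counterpart, and was nearest to the start of Twist1, a transcription factor gene. RefSeq gave 2 starts. At the start shared with vM1 no peak was found, and the upstream start, 388 kb away, had a single DOP-treated peak 9811 bp downstream at percentile 0.691, near the bottom of its list. The overlapping untreated peak lay 10008 bp from that start, just beyond the window, so the site counts for 1 list only through the limit of 10 kb. The DOP-treated peak of this site held 23 CpG dinucleotides and 76.0% G or C. Peaks of both lists also lay between the 2 starts, 377.7 kb upstream of the annotated one and outside both windows. The 250 bases printed above held 2 CpG dinucleotides at the first start and 0 at the second, against 23 for Hdac4.

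Hdac6, the class IIb enzyme that deacetylates tubulin and cortactin and carries ubiquitinated proteins to the aggresome, had 3 DOP-treated peaks and 1 untreated peak on chromosome X (gene 7507246 to 7525015, minus strand), and all of them were within 1 kb of a start. The shared site lay in an annotated UTR, at percentile 41.7 for DOP-treated and 40.2 for untreated peaks, with centres 29 bp apart. The 2 DOP-only peaks were at percentiles 11.3 and 9.72. Their centres were 349 bp and 791 bp from the untreated peak, one in a coding exon and the other 431 bp upstream of the gene. With peaks called shared when their centres lay within 1 kb, neither was DOP-only. The upstream one is printed for comparison with the DOP-only peak of Hdac7. It holds 14 CpG dinucleotides, while the other DOP-only peak of Hdac6 holds 3.

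Hdac6, DOP-only peak, chrX:7525347-7525546 (mm9, minus strand): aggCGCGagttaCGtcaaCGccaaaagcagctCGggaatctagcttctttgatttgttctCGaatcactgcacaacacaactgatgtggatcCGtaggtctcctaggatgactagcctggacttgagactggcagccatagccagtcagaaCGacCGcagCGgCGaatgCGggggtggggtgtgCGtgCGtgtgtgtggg

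Hdac10, a class IIb enzyme that acts on acetylated polyamines, had 6 DOP-treated and 5 untreated peaks on chromosome 15 (gene 88953733 to 88959130, minus strand). The 3' end of Hdac10 lies next to the start of Tubgcp6, which encodes a component of the gamma-tubulin complex, and 4 of the DOP-treated peaks and 2 of the untreated peaks were nearest to Tubgcp6. These stood at percentiles 57.7, 77.1, 82.1 and 50.4 for DOP-treated and 81.5 and 91.8 for untreated peaks. The last of the DOP-treated values belonged to a DOP-only peak in a UTR of Hdac10, 454 bp from an untreated peak. At the start of Hdac10 itself, the DOP-treated list had 2 peaks and the untreated list had 3. The peak in a coding exon was at percentile 85.5 in DOP-treated and 60.0 in untreated cells, and the peak upstream of the gene was at 79.2 and 54.7. The third untreated peak, 57 bp from a start and in a UTR, was at 66.4, with the nearest DOP-treated centre 286 bp away. It was the one untreated-only peak within 10 kb of the vM1 starts of the 7 genes. So the DOP-treated list had fewer peaks at this start but higher percentiles. Scores were 956 and 806 for DOP-treated peaks, and 500, 573.6 and 443.4 for untreated peaks. Since the lists divide this start into unlike numbers of peaks, single percentiles do not compare the whole start. The strongest of them is shown, with 7 CpG dinucleotides.

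Hdac10, highest DOP-treated peak at its own start, chr15:88958639-88958838 (mm9, minus strand): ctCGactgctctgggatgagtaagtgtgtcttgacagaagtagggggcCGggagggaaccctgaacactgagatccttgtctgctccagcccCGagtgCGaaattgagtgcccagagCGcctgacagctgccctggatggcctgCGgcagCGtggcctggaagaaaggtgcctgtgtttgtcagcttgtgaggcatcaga

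Hdac11, the class IV enzyme, which removes long fatty acyl groups from lysine more readily than acetyl groups, had 1 peak in each list on chromosome 6 (gene 91106659 to 91124686, plus strand). The DOP-treated peak was 149 bp and the untreated peak 162 bp downstream of a start, both in an intron. Their percentiles were 43.7 and 28.9, so the site ranked below the middle in each list. The next peaks were 30.0 kb away in the DOP-treated list and 39.9 kb in the untreated list. The sequence holds 14 CpG dinucleotides and 68.5% G or C.

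Hdac11, DOP-treated peak, chr6:91106870-91107069 (mm9, plus strand): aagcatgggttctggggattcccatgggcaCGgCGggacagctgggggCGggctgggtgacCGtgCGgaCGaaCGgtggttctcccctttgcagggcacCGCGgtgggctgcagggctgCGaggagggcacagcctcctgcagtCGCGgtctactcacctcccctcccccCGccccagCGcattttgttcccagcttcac

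**Figure D3:**
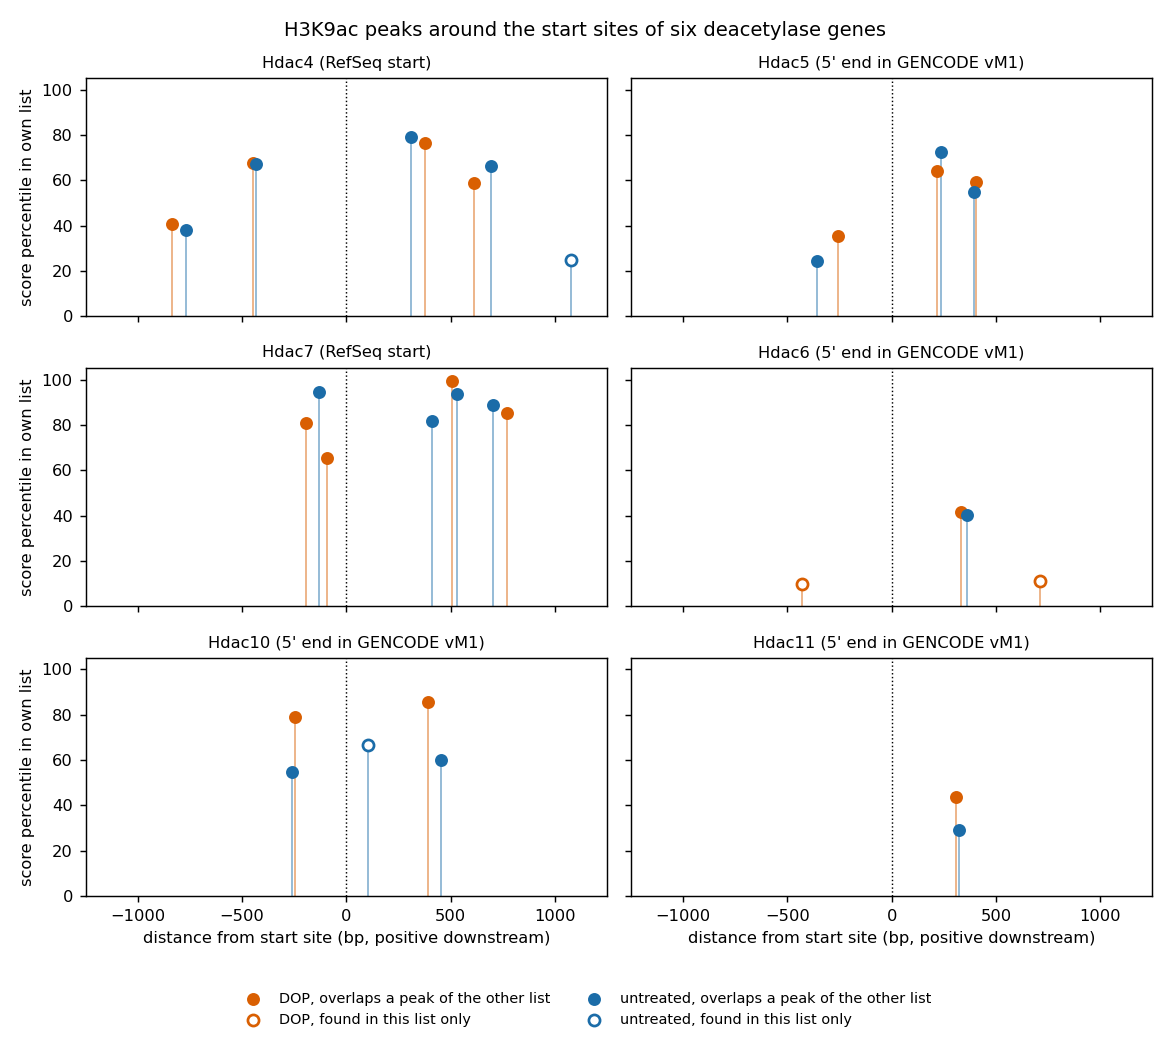
Position of H3K9ac peaks relative to 1 start site of each gene (horizontal axis, bp, positive downstream) and their score percentile within their own list (vertical axis). Orange stems are DOP-treated and blue stems untreated peaks, and open circles were found in 1 list only. The centres of shared sites are 12 to 80 bp apart at Hdac4 and 9 to 99 bp apart at Hdac5. At Hdac10 the 2 DOP-treated peaks stand above the 3 untreated ones, and at Hdac6 the 2 additional DOP-treated peaks are low.

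Within 1 kb of a start of the gene lay 14 of the 25 DOP-treated peaks (56%) and 13 of the 18 untreated peaks (72.2%). The rule already limits peaks to 10 kb, and over all protein-coding genes 69.0% and 69.7% of the peaks assigned in this way lay within 1 kb. Of the peaks nearest to the gene's own start, 8 DOP-treated peaks were upstream and 9 downstream, and 3 untreated peaks were upstream and 11 downstream. Upstream peaks thus made up 47.1% and 21.4%, against 29.0% of DOP-treated and 27.1% of untreated peaks of this kind over all genes. Sides are relative to the nearest start. The shared Hdac6 site counted as upstream in the DOP-treated list (5 bp) and as downstream in the untreated list (24 bp). Introns of the genes held 10 DOP-treated and 8 untreated peaks, UTRs held 3 and 3, and coding exons held 2 and 1.

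Peaks found in 1 list only made up 7 of 25 DOP-treated peaks, or 28.0% (95% Wilson interval 14.3 to 47.6), and 1 of 18 untreated peaks, or 5.56% (0.988 to 25.8). Over all peaks within 10 kb of a protein-coding start, 16.2% of DOP-treated and 13.3% of untreated peaks were found in that list only. Both intervals, which cover counting error only and treat neighbouring peaks as independent, include the share over all genes. Restricted to peaks nearest to the gene itself, the shares were 4 of 17 (23.5%) and 1 of 14 (7.14%). The 7 DOP-only peaks ranked low or in the middle of their list, with percentiles from 9.72 to 50.4, and 3 of them were those nearest to G6pc3, Slc48a1 and Tubgcp6. Under a rule that called peaks shared when their centres lay within 1 kb, 3 DOP-only peaks and 0 untreated-only peaks remained, and among the top 50% of each list by score 1 DOP-only peak remained.

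The scores of peaks found in both lists were compared by pairing peaks that were each other's nearest counterpart. This gave 16 pairs near the 7 genes and 25377 pairs in all, and the 18 shared DOP-treated peaks were not all paired. Centres of the 16 pairs were a median of 26 bp apart (9 to 99), against a median of 29 bp over all pairs. The DOP-treated peak had the higher percentile in 9 pairs and the lower in 7, and the median difference, DOP-treated minus untreated, was 2.72 percentile points. Over all pairs the median difference was 1.34, with the DOP-treated peak higher in 59.0%, and the middle 95% of differences ran from -24.1 to 28.2. The largest differences in favour of the DOP-treated list were the 2 promoter sites of Hdac10 (25.5 and 24.5), followed by a site nearest to Slc48a1 (16.3) and the single site of Hdac11 (14.8). A further untreated peak at the Hdac10 start, at percentile 66.4, was in no pair. The 2 Hdac10 differences thus cover only part of the untreated call there. The Hdac7 site upstream of the start at 97662198 had the largest difference the other way, -28.9, and was the one pair of the 16 outside the middle 95% of all pairs. A further DOP-treated peak, at percentile 80.8, overlapped the same untreated peak but was in no pair, so this difference reflects only part of the DOP-treated call. For the 12 pairs nearest to the gene itself, 7 were higher in the DOP-treated list and 5 lower, with a median of 3.02.

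**Figure D4:**
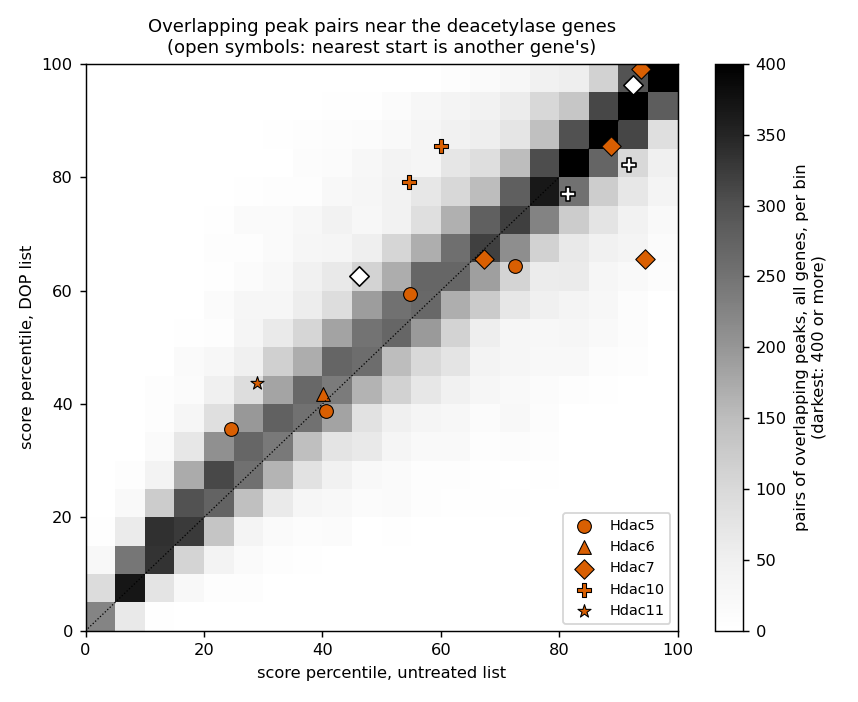
Score percentile of overlapping peaks, with untreated peaks on the horizontal axis and DOP-treated peaks on the vertical axis. Grey shading counts the 25377 pairs of all genes in bins of 5 percentile points, the dotted line marks equal percentiles, orange symbols are pairs near the deacetylase genes, and open symbols are pairs nearest to another gene. Both Hdac10 promoter sites lie above the line at 85.5 against 60.0 and 79.2 against 54.7, and 1 Hdac7 pair lies far below it at 65.6 against 94.4. A further DOP-treated peak at that Hdac7 site, at percentile 80.8, was in no pair and is not drawn. The same holds for a further untreated peak at the Hdac10 start, at percentile 66.4.

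Sequence composition was described for shared and one-list peaks. The 18 shared DOP-treated peaks near these genes had a median of 10.5 CpG dinucleotides per 200 bp and 61.2% G or C, and the 7 DOP-only peaks had a median of 3 and 56.0%. Shared DOP-treated peaks of all genes had a median of 12 CpG and 61.5%, and all DOP-only peaks had 4 and 52.5%, a difference in the same direction. The 17 shared untreated peaks had a median of 13 CpG and the 1 untreated-only peak, at Hdac10, had 14, so this peak did not differ in the direction of the DOP-only ones. All shared untreated peaks had a median of 12 CpG and all untreated-only peaks had 4. RefSeq promoter windows, from 250 bases before to 50 after a start, were matched on mm9 at 10 start sites of 6 of the genes. The 6 starts with peaks of both lists within 1 kb, those of Hdac4, Hdac5, Hdac6, Hdac11 and 2 of Hdac7, held 18 to 35 CpG dinucleotides in this window. The 4 starts without, 2 of Hdac7 and both of Hdac9, held 0 to 6. The median over 32851 RefSeq windows was 7. These are descriptions over neighbouring windows of few genes.

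**Figure D5:**
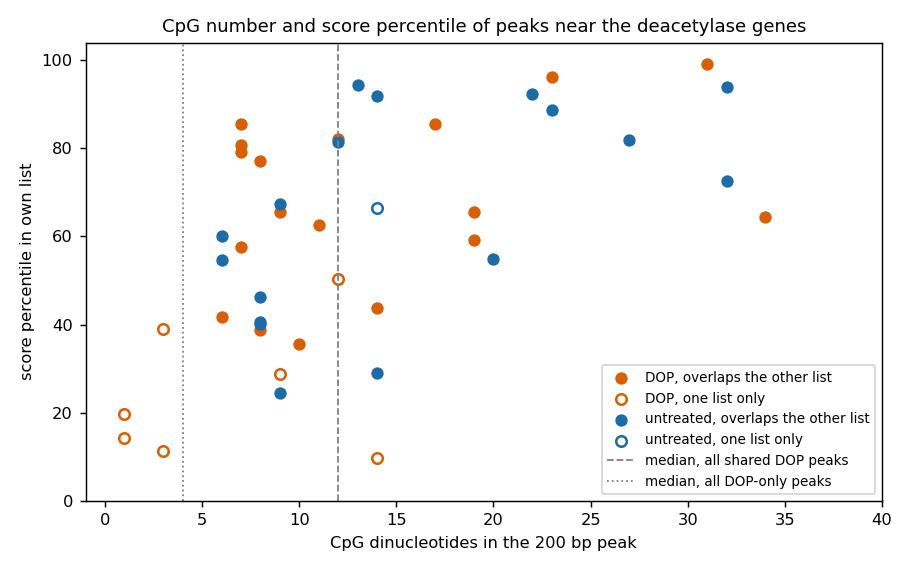
Number of CpG dinucleotides in each 200 bp peak near the deacetylase genes (horizontal axis) and its score percentile within its own list (vertical axis). Filled circles overlap a peak of the other list, open circles do not, and vertical lines mark the medians of all shared (12) and all DOP-only (4) peaks of the DOP-treated list. Of the 7 DOP-only peaks, 4 have 3 or fewer CpG dinucleotides.

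Short motifs were searched on both strands of each peak. GGGCGG, the core of the GC box bound by Sp1 and related factors, occurred in 8 of 25 DOP-treated peaks (32.0%) and 9 of 18 untreated peaks, against 28.5% and 29.3% of all peaks of the lists. Peaks that overlap one another hold the same copies of it, as at the Hdac7 promoter, where the DOP-treated peak printed above holds 3. CCAAT, bound by NF-Y, occurred in 2 peaks of each list (8% and 11.1%, against 13.9% and 13.6% of all peaks). TGANTCA, a pattern that includes the AP-1 motif TGA(C/G)TCA, occurred in 1 DOP-treated peak (4.00%, against 3.38%) and in 0 untreated peaks (3.03% of all). The match, in the DOP-only peak upstream in Hdac7 printed above, reads TGATTCA, which is not the AP-1 motif itself. The CRE motif TGACGTCA, the ETS motif CCGGAAG and the MEF2 motif occurred in no peak near the 7 genes, and in 0.213%, 3.49% and 0.703% of all DOP-treated peaks.

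Genes whose products act with the class II enzymes were described in the same way. Of the 33 partner genes, 32 had a DOP-treated peak and 30 had an untreated peak, with 118 and 102 peaks in all. Over all protein-coding genes, 57.7% had a DOP-treated and 56.9% an untreated peak. More peaks in the DOP-treated list were found for 16 of them, fewer for 5 and equal numbers for 11, against 32.5%, 28.5% and 39.0% of all genes with a peak. Among the 7 corepressor and target genes of class IIa, Mef2d had 8 peaks in each list and Hdac3, the catalytic partner in the NCoR and SMRT complexes, had 6 DOP-treated peaks, 3 of them closest to its own start, and 4 untreated peaks, 1 of them closest to it. Mef2c, a MEF2 gene of developing muscle and neurons, had a single DOP-only peak at percentile 5.07. The 14-3-3 genes, 7 in all, each had peaks in both lists, with Ywhaz at 6 and 5 (highest percentiles 99.7 and 99.8), and Ywhae was the one with fewer DOP-treated peaks, 3 against 4.

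Of 11 kinase genes that act on class IIa enzymes, 10 had a DOP-treated and 9 an untreated peak, against 57.7% and 56.9% of all protein-coding genes. Camk4, a calcium-dependent kinase of neurons and lymphocytes, had none. Prkd2, which encodes a protein kinase D, had 2 DOP-only peaks, the higher at percentile 88.3, and no untreated peak. Mark2 had 6 DOP-treated and 4 untreated peaks and Sik3 had 5 and 5. All 8 genes for Hdac6 partners and substrates had peaks in both lists. Of these, 6 had more in the DOP-treated list, among them Cttn (cortactin, 6 and 4) and Hsp90ab1 (6 and 5), and Plaa had fewer (3 and 4). Of all genes with a peak, 32.5% had more and 28.5% fewer. The 4 class I genes had 15 peaks in each list, with Hdac3 at 6 DOP-treated and 4 untreated peaks, Hdac1 at 5 and 6, Hdac2 at 3 and 3, and Hdac8 at 1 and 2. All 4 class I genes thus had peaks of both lists at vM1 starts, against 5 of the 7 genes of class II and IV.

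The label of the cells was set against marker genes. Among the genes listed for striatal progenitors, Vim, Foxp1, Meis2 and Dlx1 had peaks in both lists and Dlx2 in the DOP-treated list only. From the same list, Nes, Sox2, Pax6, Gsx2 and Bcl11b had none. Of 5 genes of mature striatal neurons only Ppp1r1b had peaks, 4 in each list, of which 2 and 1 were nearest to its own start. All 3 fibroblast genes had peaks in both lists, with Col1a1 at 5 and 5. None of 3 astrocyte and 2 endothelial genes had a peak, Mbp was the one of 4 oligodendrocyte genes with any (2 DOP-only peaks, up to percentile 7.58), and the peaks near Aif1, the one of 4 microglial genes with any, were all nearest to other genes. Several genes listed for progenitors were thus without a peak in either list. Over all protein-coding genes, 57.7% had a DOP-treated and 56.9% an untreated peak, so genes without a peak were common in general and these marker lists are short.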

How the data were processed

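The authors describe alignment to mm9 by Bowtie 2 followed by peak calling with the program GPS, while the submitters' processing notes name BWA 0.7.10 and mm9, and per the file headers the events come from GEM. Both lists are longer than the peak numbers stated in the study's text, so the call described there may be another one. The deposited lists, 1 per condition, give a position and a score per peak. The use of replicates and of IgG in peak calling and the threshold are not given in the sources used here, and neither is the definition of the score. Scores were turned into percentiles within a list.

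Peaks were assigned by centre, within 10 kb of protein-coding starts of GENCODE vM1, and called shared when their intervals overlapped by at least 1 bp. Sequence was read from NCBIM37 (mm9). Of 32851 RefSeq promoter entries (GRCm38.p6), 17910 matched NCBIM37 exactly once under a vM1 gene name, for 14622 genes. Wilson intervals have 95% confidence. The functions were tested on simulated data. The genes, the partner and marker lists, the motifs and the rule for named genes (every member, every gene nearest to a member's peak, and of the other lists the genes with a peak in 1 list or none and those with most peaks) were chosen with earlier results of these data known. One gene of the marker lists is not reported here. Other sharing rules, windows, score limits and gene assignments were tried. Computations ran in Python 3.11.15 (pandas 2.3.3, numpy 2.4.6, statsmodels 0.14.6, scipy 1.17.1, matplotlib 3.10.9, pysam 0.24.0).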

Additional observations from a re-analysis of the deposited data

How the results depend on the processing

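Of 96 results recomputed under an alternative, 69 stayed within limits and 27 moved. The limit was 1.5 times for counts, the Wilson interval of the reported value for shares, and an interval of order statistics over the peaks for median percentiles. Both intervals are wide. Within them the DOP-only share still fell from 28.0% to 14.3% (1 kb window), 16.7% (5 kb window) and 16% (centres within 500 bp), and the untreated-only share went from 5.56% to 10% (5' end) and 8.70% (RefSeq starts). No paired analysis was possible because each condition has 1 pooled list and no result comes from a test. Leaving out a replicate could not be done for the same reason. The depth behind each peak is unknown, and the RefSeq starts were added after the data had been seen.

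Among the top 50% of each list, 3 genes had a DOP-treated peak and 3 an untreated one, 2 had more DOP-treated peaks, 15 DOP-treated peaks remained, and 1 of them (6.67%) was DOP-only. With peaks assigned to the nearest gene only, 2 genes had more and 1 fewer DOP-treated peaks, and 4 peaks were DOP-only. A 1 kb window gave 14 DOP-treated peaks, 2 of them DOP-only, with 1 gene having more and 1 fewer. A 5 kb window gave 2 genes with more and 3 DOP-only peaks. The 5' end alone gave 14 DOP-treated peaks (4 DOP-only) and 10 untreated peaks. With centres within 1 kb called shared, 3 peaks (12.0%) were DOP-only and 0 (0%) untreated-only, and within 500 bp the counts were 4 and 0 (0%). With RefSeq starts added, 1 gene had fewer DOP-treated peaks and 2 peaks were untreated-only. The top 50% and narrower windows leave fewer peaks by construction.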
